A study of Mus musculus with 4 samples.

Results

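The genes of the fatty acid desaturases, 8 members named Scd1, Scd2, Scd3, Scd4, Fads1, Fads2, Fads3 and Fads6, were followed in RNA sequencing of brown adipose tissue (BAT). The members were taken by gene symbol and were 8 of the 55387 rows listed for each library. BAT came from 4 male mice aged 15 weeks on a C57BL/6 background, 2 Sox4f/f controls and 2 littermates labelled Sox4-MKO, with 1 library per mouse. The sample labels call the controls wild type. Both genotypes carry the floxed Sox4 alleles, and the Sox4-MKO mice also carry Myf5-Cre, whose recombinase is active in the lineage of brown adipocytes and skeletal muscle. The deletion is thus directed at that lineage, and Sox4 in other cells of the depot was not measured here. Values are FPKM as the authors deposited them, that is, fragments scaled to transcript length and to library size. Because Sox4 mRNA itself was not lower under the Sox4-MKO label (values follow), these mice and libraries are called MKO-labelled.

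Fatty acid desaturases are membrane enzymes of the endoplasmic reticulum that place a double bond in an acyl chain, using electrons passed on by cytochrome b5 and its reductases. The SCD enzymes make monounsaturated from saturated fatty acids and supply oleate for triglyceride and membrane lipids, SCD1 being the main form of liver and fat and SCD2 best known from brain. FADS2 and FADS1 act in turn on dietary linoleate and alpha-linolenate to form the long polyunsaturated acids such as arachidonate, and FADS3 has been described as a desaturase of sphingoid bases. Their genes are known targets of SREBP1c, encoded by Srebf1, and of the liver X receptors.

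Of the 8 genes, 7 lie on chromosome 19 of GRCm38 in 2 clusters, by a match of symbols to GENCODE M21. In the first cluster Fads3 spans 10041569 to 10060110 on the plus strand, Fads2 spans 10062765 to 10101746 on the minus strand, and Fads1 spans 10182888 to 10196877 on the plus strand. In the second, Scd3 (44203269 to 44244016), Scd2 (44293674 to 44306864) and Scd4 (44333092 to 44346743) lie on the plus strand and Scd1 (44394455 to 44407879) on the minus strand. Fads6 lies on chromosome 11 from 115279622 to 115297663 on the minus strand. The largest annotated transcript has 12 exons in Fads1, Fads2 and Fads3 and 6 exons in the other 5 genes.

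The Scd transcripts share stretches of sequence with each other, which bears on how reads can be told apart. Of all stretches of 50 bases in the longest Scd1 transcript, 4.66% occurred in the transcripts of another member, against 3.79% for Scd2, 6.37% for Scd3 and 3.44% for Scd4. With 100 bases these shares were 2.64%, 0.896%, 2.54% and 0.53%. For Fads2 and Fads3 the share at 50 bases was 0.161% and 0.137%, and for Fads1 and Fads6 no stretch was shared. Values of the Scd genes are therefore uncertain where fragments fall in the shared stretches, and those of the Fads genes hardly so.

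The primers of the study for quantitative PCR of Scd1 and Fads1 are shown because they fall on parts of these transcripts in which the members differ. Capitals mark the bases that differ from the closest site in any other member, and the primers run 5′ to 3′.
Scd1 forward: ttcttgcgatacAcTCtggtgc
Scd1 reverse: cgGgaTTGaatgttcttgtcgt
Fads1 forward: aGCacAtgccAtacaaccaTc
Fads1 reverse: tTTccgctgaaccaCAAaatAGa
In GENCODE M21 each of these matched the transcripts of its target gene and of no other gene. The closest site of both Scd1 primers was in Scd2, with 3 and 4 differing bases. For the Fads1 primers it was in Fads2 with 5 and in Fads3 with 7 differing bases.

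The neighbours Fads3 and Fads2 are shown by their promoters, since they lie side by side and had different values in these libraries. RefSeq windows on GRCm38.p6, from 250 bases before to 50 after the start of transcription, were matched for Scd3, Scd4, Fads2, Fads3 and Fads6. The Fads3 window is chr19:10041298-10041597 on the plus strand and that of Fads2 is chr19:10101454-10101753 on the minus strand. Capitals mark CCAAT, the box bound by the factor NF-Y, in either orientation.
Fads3: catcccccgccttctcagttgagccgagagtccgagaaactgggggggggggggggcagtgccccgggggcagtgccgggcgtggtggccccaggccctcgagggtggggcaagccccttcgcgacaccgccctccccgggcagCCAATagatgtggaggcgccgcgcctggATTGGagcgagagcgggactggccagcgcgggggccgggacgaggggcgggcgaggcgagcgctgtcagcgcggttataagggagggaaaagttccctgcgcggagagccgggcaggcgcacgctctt
Fads2: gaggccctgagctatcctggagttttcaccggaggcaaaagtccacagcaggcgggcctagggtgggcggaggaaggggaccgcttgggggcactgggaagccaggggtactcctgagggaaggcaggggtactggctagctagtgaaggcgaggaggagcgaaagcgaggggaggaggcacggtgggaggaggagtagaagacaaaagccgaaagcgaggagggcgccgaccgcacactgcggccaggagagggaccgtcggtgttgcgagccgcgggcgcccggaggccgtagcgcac
The Fads3 window held 2 such boxes, beginning 106 and 78 bases before the start, and the Fads2, Fads6, Scd3 and Scd4 windows held none. Of all 32851 windows, 37.4% held at least 1. The E-box CACGTG (7.15% of all windows) and the TATA box TATAAA (13.6%), also searched on both strands, were found in none of the 5 windows. The same held for 1 form each of the sterol regulatory element (0.0913% of all windows) and of the liver X receptor repeat (0.0152%). A match or its absence describes these letters alone.

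Depth was estimated at 12243813 to 16943256 fragments per library from the lowest FPKM of genes with a single transcript, where values cluster at that of 1 fragment. Sox4, the deleted gene, had 1.98 and 1.06 FPKM in the controls and 0.981 and 3.06 FPKM in the MKO-labelled libraries, so the groups overlapped and Sox4 mRNA does not check the labels (log2 fold change 0.20, adjusted p = 0.843 by limma). All directions follow the labels. Markers of other cells were present in every library although the labels name adipocytes. The 8 skeletal muscle markers summed to 167 and 621 FPKM in the controls against 12130 and 2158 FPKM, higher without overlap for 7 of the 8, and the MKO-labelled libraries also had higher sums for the 6 fibroblast and progenitor markers (285 and 335 against 704 and 653 FPKM) and the 8 macrophage markers (193 and 285 FPKM in the controls, with a ratio of the genotype means of 1.65). The 8 brown adipocyte markers summed to 4137 and 4108 FPKM in the controls against 1959 and 2343 FPKM, lower without overlap for 6 of the 8. The sum of the 6 general adipocyte markers overlapped between the genotypes (9145 and 9618 against 8284 and 11094 FPKM), with 3 of the 6 lower and 0 higher without overlap. Of the 12877 genes with a genotype mean above 1 FPKM in either genotype, 21.7% were higher and 29.6% lower without overlap. The count for these 6 markers is therefore not read as a difference.

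Among the 7 members that could be compared, Scd2, Fads1 and Fads3 had higher mRNA levels in the MKO-labelled libraries, Fads2 did not differ detectably, and Scd3, Scd4 and Fads6 were low, Fads6 at no more than 1.5 FPKM and Scd3 and Scd4 at no more than 0.299 FPKM. The log2 fold change on log2(FPKM + 1) was 1.47 for Scd2, 0.94 for Fads3 and 0.57 for Fads1, each at an unadjusted p under 0.05 by limma over the 12877 genes whose genotype mean exceeded 1 FPKM in either genotype. Such a p in the higher direction was given to 7.95% of all genes tested (16.2% in either direction), and 0 genes passed 0.05 after Benjamini-Hochberg adjustment by limma, against 2090 at an unadjusted p under 0.05. Of the 8 members, 5 entered the test, were compared and gave 3 such calls, Scd1 was not compared, and Scd3 and Scd4 did not pass the filter. Fads6 passed it only through the MKO-labelled libraries, so the share over those tested is no evidence on the family. The study displayed Scd2, Scd3, Fads1, Fads3 and Fads6 among its lipogenesis genes on these same libraries, so their direction is not independent evidence here. It also measured lipogenesis genes by quantitative PCR in BAT of younger mice, and those values are not used here. In bulk tissue, more cells of a type and more RNA per cell cannot be told apart.

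**Figure D1:**
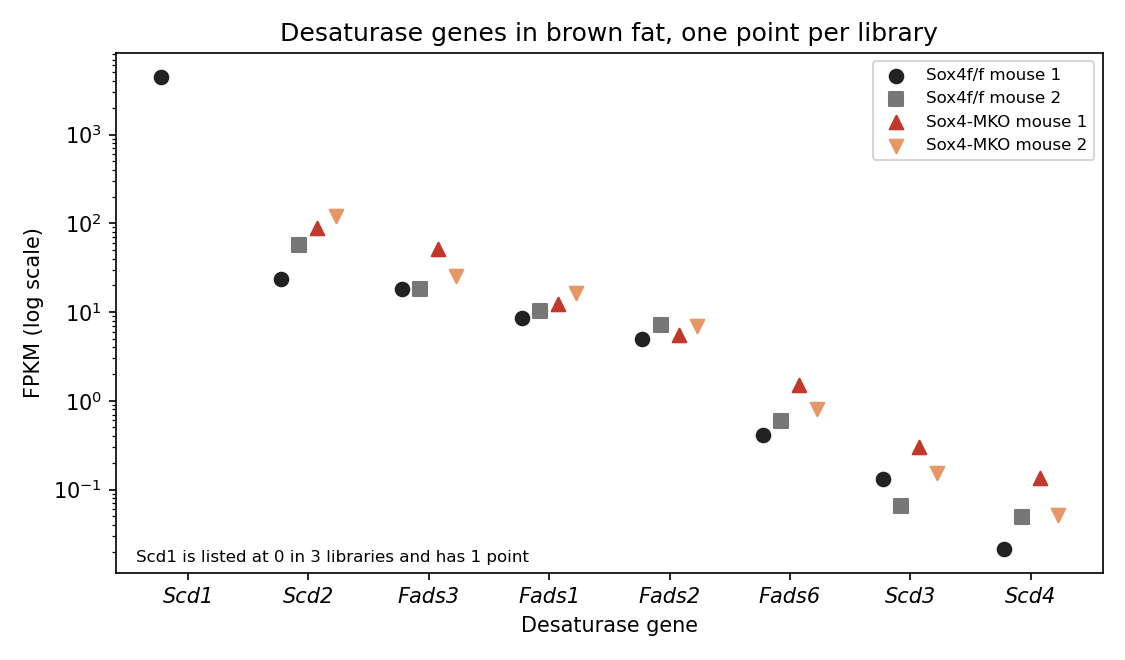
FPKM of the 8 desaturase genes on a log scale, with 1 point per library and genes ordered by level. Scd2 is highest of the genes with 4 points, Fads2 overlaps between the genotypes, and Scd1 has a single point at 4491 FPKM because it is listed at 0 in the other 3 libraries.

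Scd1, the main desaturase of adipocytes, had a value of 4491 FPKM in the library of control mouse 1 and was listed at 0 for control mouse 2 and both MKO-labelled libraries. An exact 0 of so high a gene is a failed estimate, and Scd1 was not compared between genotypes. It was 1 of 13 genes above 100 FPKM in at least one library and at 0 in another, of 863 above 100 FPKM in at least one library. Of these 13 genes, 12 had a value above 0 in a single library. The level of Scd1 in brown fat of MKO-labelled mice, and any shift of the summed SCD level, could not be read from these values.

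Scd2, the highest of the Scd genes with a value in every library, had 23.7 and 57.5 FPKM in the controls and 89.2 and 122 FPKM in the MKO-labelled libraries. Both of the latter lay above both controls, while Sox4f/f mouse 1 was the lowest and mouse 2 had 2.43 times its level. The mean was 40.6 ± 23.9 FPKM in the controls and 106 ± 23.2 FPKM under the other label (SD, n = 2 mice each), a ratio of 2.6. On the log2 scale the difference was 1.47 (SE 0.45, 95% interval 0.29 to 2.66, adjusted p = 0.25 by limma). Among the members it was the most dependent on a control, with 0.85 without Sox4f/f mouse 1 and 2.1 without Sox4f/f mouse 2, and its unadjusted p was above 0.05 without either MKO-labelled library (0.0665 without mouse 1 and 0.118 without mouse 2). The library with the lowest Scd2 was the only one in which Scd1 had a value. In that library Scd1 stood for an estimated 298685 fragments and Scd2 for 1777. Of the Scd1 stretches of 50 bases, 3.03% occurred in Scd2 (1.01% at 100 bases), and the same share of the Scd1 fragments would be 9050 (3017 at 100 bases), more than all fragments given to Scd2. How such fragments were assigned in each library, and their part in the Scd2 difference, was not tested.

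Scd3 and Scd4, paralogs best known from skin glands and heart, were near the limit of detection. Scd3 had 0.132 and 0.0649 FPKM in Sox4f/f, an estimated 6 and 3 fragments, and 0.299 and 0.152 FPKM under the other label, an estimated 14 and 9 fragments. Scd4 had 0.0214 and 0.049 FPKM against 0.136 and 0.0522 FPKM, from an estimated 1, 2, 6 and 3 fragments. Both genes were higher without overlap, as were 21.7% of the 12877 tested genes (29.6% were lower without overlap), among which they are not. Over the summed fragments the ratio was 2.21 for Scd3, with a 95% interval from counting of 0.985 to 5.42, and 2.59 for Scd4, with 0.647 to 14.9 (exact binomial intervals that cover counting error only). A difference between genotypes was not detectable at this depth. Of the stretches of 50 bases in Scd3, 4.85% occurred in Scd1, and the part of such shared fragments in these values was not tested.

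Fads1, which catalyses the later desaturation on the way to arachidonate, had 8.63 and 10.2 FPKM in the controls and 12.4 and 16.5 FPKM in the MKO-labelled libraries. The groups did not overlap, and the spread was small in the controls. The mean was 9.4 ± 1.08 FPKM against 14.5 ± 2.89 FPKM (SD, n = 2 each), a ratio of 1.54. By limma the log2 difference was 0.57 (SE 0.19, 95% interval 0.05 to 1.08, adjusted p = 0.275). It stayed positive with each library left out, from 0.37 without MKO-labelled mouse 2 to 0.76 without MKO-labelled mouse 1, where the unadjusted p was 0.0255, whereas it was above 0.05 without any other library. Fads1 values rested on an estimated 411 to 969 fragments, so counting error was smaller than the spread between mice.

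Fads2, which catalyses the first and rate-limiting step of the same pathway, did not differ detectably between the genotypes. It had 5 and 7.07 FPKM in the controls and 5.52 and 7.01 FPKM in the MKO-labelled libraries, so the genotypes overlapped. The mean was 6.04 ± 1.46 FPKM against 6.27 ± 1.05 FPKM (SD, n = 2 each). The log2 fold change was 0.05 (SE 0.23, 95% interval -0.54 to 0.65, adjusted p = 0.918 by limma), and its sign changed with the scaling and with the libraries used. The ratio of Fads1 to Fads2 within a library, which no rescaling of the library alters, was 1.73 and 1.44 in Sox4f/f and 2.25 and 2.36 under the other label. It was higher without overlap, with an exact two-sided permutation p of 0.333, which is the smallest that 2 against 2 libraries allow.

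Fads3, the member next to Fads2 on the chromosome, had 18.4 and 18.3 FPKM in Sox4f/f, 50.7 FPKM in MKO-labelled mouse 1 and 25.7 FPKM in MKO-labelled mouse 2. The controls were nearly equal, and mouse 1 stood at 2.76 times and mouse 2 at 1.40 times their mean. The limma fit gave a log2 fold change of 0.94 (SE 0.33, 95% interval 0.06 to 1.82, adjusted p = 0.287). This value became 0.46 without MKO-labelled mouse 1 and 1.42 without MKO-labelled mouse 2, and its unadjusted p was 0.142 and 0.154 without Sox4f/f mouse 1 and mouse 2. The ratio of Fads3 to Fads2 overlapped between the genotypes, with 3.68 and 2.58 in Sox4f/f against 9.18 and 3.66 (exact permutation p = 0.667).

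Fads6, the only member outside chromosome 19, was low, with 0.413 and 0.592 FPKM in the controls and 1.5 and 0.808 FPKM in the MKO-labelled libraries, from an estimated 28, 36, 97 and 68 fragments. The groups did not overlap and mouse 1 was again the highest. Fitted by limma, the log2 fold change was 0.50 (SE 0.29, 95% interval -0.26 to 1.26, adjusted p = 0.443). The added 1 in log2(FPKM + 1) weighs heavily at this level, and with a pseudocount of 0.01 the value was 1.14. Without MKO-labelled mouse 2 it was 0.73, with an unadjusted p of 0.0346, and without MKO-labelled mouse 1 the gene no longer passed the filter.

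**Figure D2:**
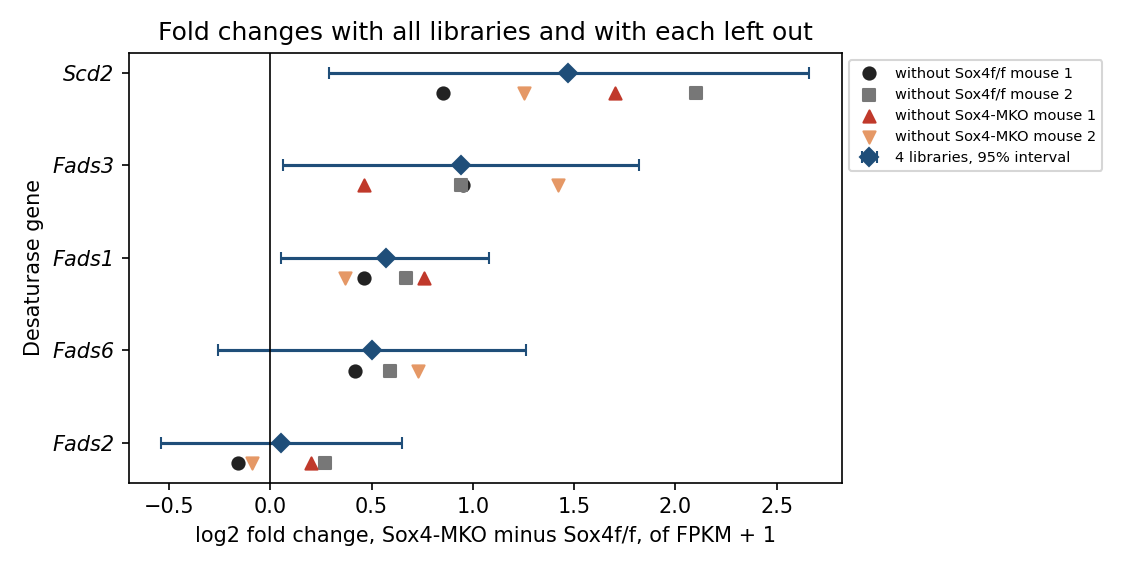
log2 fold change of FPKM + 1, Sox4-MKO minus Sox4f/f, for the 5 compared members that passed the filter, with the 95% interval from limma over 4 libraries as a bar and the value without each library as a point. The intervals of Scd2, Fads3 and Fads1 lie above 0, those of Fads6 and Fads2 include 0, and Fads3 moves between 0.46 and 1.42 with the MKO-labelled library left out.

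The MKO-labelled mice also differed from each other, 1 library against 1 and so with no test. The ratio of mouse 1 to mouse 2 was 1.97 for Fads3, 1.85 for Fads6, 0.731 for Scd2, 0.753 for Fads1 and 0.788 for Fads2. For Scd3 (1.97) and Scd4 (2.61) it rests on an estimated 14 against 9 and 6 against 3 fragments, too few to read a direction. Summed skeletal muscle markers were 5.62 times as high in mouse 1 as in mouse 2. This ratio was 1.64 for Schwann cell and myelin markers, 1.08 for fibroblast and progenitor markers, 1 for macrophage markers, 0.836 for brown adipocyte markers, 0.747 for general adipocyte markers and 0.705 for endothelial markers. Across the controls the muscle markers were 3.71 times as high in mouse 2 as in mouse 1. The same ratio was 2.43 for Scd2, 1.43 for Fads6, 1.41 for Fads2, 1.18 for Fads1 and 0.991 for Fads3. For Scd3 (0.492) and Scd4 (2.29) it rests on an estimated 3 against 6 and 2 against 1 fragments, again too few to read. The part of muscle tissue in the values of the members was not tested. The 5 white adipocyte markers, a list fixed for other depots, summed to 154 and 137 FPKM in the controls against 481 and 569 FPKM. The ratio of the genotype means was 3.61, with 3 of the 5 higher without overlap (21.7% of all tested genes were) and Hoxc10 at 0 in every library. Their part in the desaturase values was not tested. The remaining lists were at low levels. Liver markers summed to 2.28 and 2.6 against 10.4 and 7.97 FPKM. Skin and sebaceous gland markers summed to 6.93 and 5.52 against 5.05 and 7.78 FPKM with Krt5 at 0 in every library. Of these sums, 3.24 and 1.64 against 1.31 and 2.52 FPKM came from Elovl3, which is also in the brown adipocyte list.

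**Figure D3:**
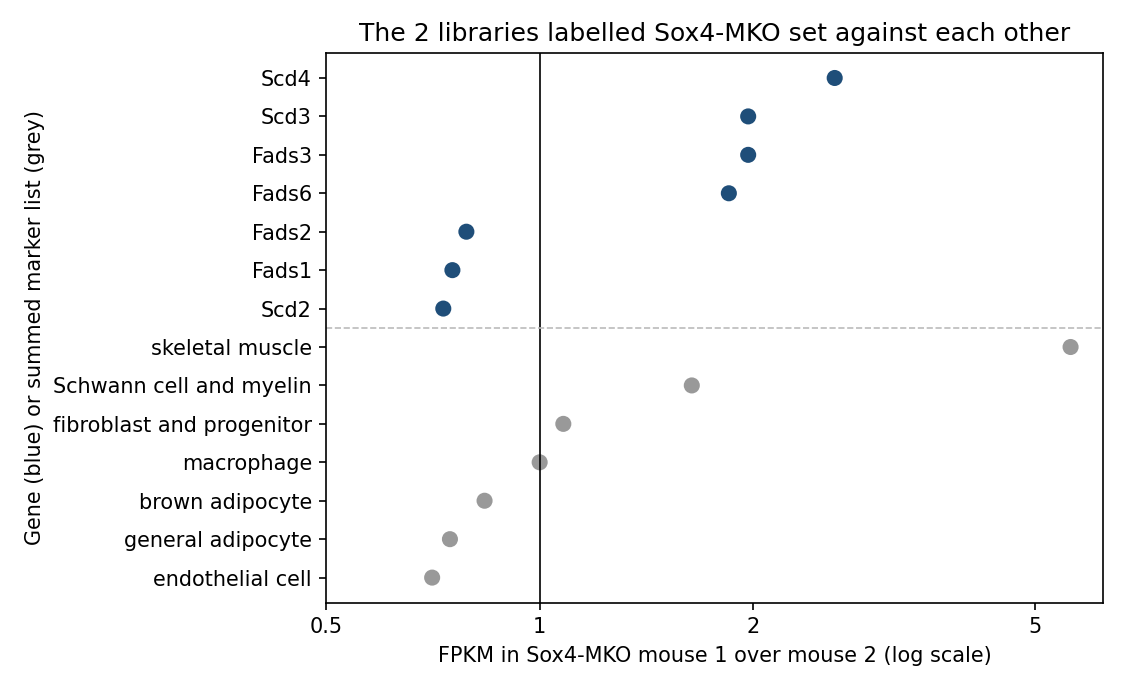
Ratio of FPKM in MKO-labelled mouse 1 to mouse 2 on a log scale, for the 7 members with a value in each library (blue) and the summed level of 7 marker lists (grey). Fads3, Fads6, Scd3 and Scd4 lie between 1.85 and 2.61, Scd2, Fads1 and Fads2 between 0.731 and 0.788, and the skeletal muscle list is at 5.62.

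The order of levels was the same in all 4 libraries. FPKM is per length of transcript, so levels can be set side by side, and they ran from Scd2 through Fads3, Fads1, Fads2, Fads6 and Scd3 to Scd4. In neither genotype did neighbours in this order overlap, but the step from Scd3 to Scd4 rests on an estimated 6 and 3 against 1 and 2 fragments in the controls and on 0.152 against 0.136 FPKM between the MKO-labelled mice, so the order of this pair is not firm. In proportion the closest neighbours within Sox4f/f were Fads1, at 8.63 FPKM in its lower mouse, and Fads2, at 7.07 FPKM in its higher mouse. Without Scd1, Scd2 made up 42% and 61.4% of the summed FPKM of the 7 members in Sox4f/f and 55.8% and 70.8% in the MKO-labelled libraries, so its share overlapped. The sum itself was 56.3 and 93.7 FPKM in the controls against 160 and 172 FPKM. Among all genes tested, the mean level of Scd2 was above that of 92.5%, Fads3 above 80.2%, Fads1 above 58.5% and Fads2 above 39.2%.

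For each member that passed the filter, the genes with the most similar profile were taken by Euclidean distance of centred log2(FPKM + 1) over the 4 libraries, out of 12595 genes above 0 in all of them. For Scd2 these were Gm11773 (distance 0.21) and Slc2a5 (0.37), for Fads1 Sowahc (0.054) and Efcab7 (0.078), and for Fads2 Gm43759 (0.047) and Vps13a (0.05). For Fads3 they were Colq (0.065) and Atp2a2 (0.081). Colq had 0.0225 and 0.0797 FPKM in the controls against 1.82 and 0.442 FPKM, and Atp2a2 had 69.9 and 72.7 FPKM against 195 and 94.4 FPKM. Colq, Gm11773, Efcab7 and Gm43759 were below 1 FPKM in at least 1 library, where the added 1 weighs heavily on the profile. Colq, Gm11773 and Efcab7 passed the filter only through the MKO-labelled libraries, so a higher mean there was set by the filter. For Fads6 they were Ufl1 (0.057) and Apln (0.059). With 4 libraries, many genes have like profiles, and the distances describe these libraries alone.

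The other annotated genes within 100 kb of the members are set beside the 16.2% of all genes with an unadjusted p under 0.05 in either direction. Around Fads1 to Fads3, 5 of 12 neighbours were tested, of which 1 was higher and 1 lower at an unadjusted p under 0.05. Around the Scd cluster 3 of 13 were tested with 0 such calls by limma, and around Fads6 5 of 11 with 1 lower. None of these had an adjusted p under 0.05.

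Genes that work with the desaturases were described from lists of known members, beside a median log2 fold change of -0.05 over all genes tested and 7.95% of genes higher and 8.28% lower at an unadjusted p under 0.05. Of the 7 genes of the cytochrome b5 electron supply, 6 were tested and 1 was higher at that p, with a median of 0.32. Cyb5b, the cytochrome b5 of the outer mitochondrial membrane, had 63.6 and 79.3 FPKM in the controls against 90.8 and 114 FPKM (log2 fold change 0.51, adjusted p = 0.288 by limma). Cyb5a, the microsomal form that serves the desaturases, overlapped with 169 and 217 against 196 and 197 FPKM. Its reductase Cyb5r3 had 33.4 and 34.2 against 50.2 and 37.9 FPKM (log2 fold change 0.36, adjusted p = 0.374 by limma).

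Of the 13 genes of the elongation cycle, which lengthens the acyl chains before and after desaturation, 10 were tested and 2 were higher at an unadjusted p under 0.05, with a median of 0.29. Elovl6, the elongase that provides stearate to the SCD enzymes, had 91.2 and 99.4 FPKM in the controls against 155 and 185 FPKM, which is 0.83 on the log2 scale (adjusted p = 0.196 by limma) with an unadjusted p under 0.05 in all 15 alternatives. Hsd17b12, the ketoacyl-CoA reductase of the cycle, had 134 and 131 against 163 and 191 FPKM (log2 fold change 0.41). Elovl5, which extends the products of FADS2, was lowest in MKO-labelled mouse 1 with 39.7 FPKM and highest in mouse 2 with 72.7 FPKM, around 44.2 and 48.1 FPKM in Sox4f/f.

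Of 7 other membrane desaturases and related oxidases, 4 were tested, with a median of 0.52, and 3 were higher at an unadjusted p under 0.05. Sc5d, a desaturase of cholesterol synthesis, had 23.5 and 28.2 FPKM against 49.8 and 76.1 FPKM (log2 fold change 1.23, adjusted p = 0.205 by limma). Msmo1, which acts earlier in the same synthesis, had 8.24 and 9.00 against 12.8 and 14.7 FPKM (log2 fold change 0.62). Degs1, the dihydroceramide desaturase, had 26.3 and 31.6 against 39.7 and 38 FPKM (log2 fold change 0.42).

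All 17 regulators were tested, with a median of -0.07, and 2 were higher and 3 lower at an unadjusted p under 0.05. Srebf1 had 88.7 and 111 FPKM in the controls against 145 and 131 FPKM (log2 fold change 0.47, adjusted p = 0.269 by limma). Insig1, a target and inhibitor of SREBP activation, had 89.7 and 161 against 183 and 211 FPKM (log2 fold change 0.71, adjusted p = 0.342 by limma). Sox4f/f mouse 1 was its lowest library, as it was for Srebf1, Scd2, Fads1 and Fads2. Rxra, a partner of nuclear receptors, had 18.9 and 20.4 against 28.3 and 27.5 FPKM. Its relative Rxrb was lower (35 and 32.3 against 22.7 and 21.6 FPKM). The liver X receptor gene Nr1h2 was lower as well (51.7 and 50.3 against 39.4 and 37.2 FPKM). The other liver X receptor gene, Nr1h3, overlapped between the genotypes (31.7 and 37.2 against 30.1 and 35.5 FPKM). Ppara was lower (115 and 130 against 57.7 and 66.4 FPKM, log2 fold change -0.97, adjusted p = 0.196 by limma).

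Of 18 genes that activate, transfer or oxidise unsaturated chains, 13 were tested, with a median of 0.20, and 3 were higher at an unadjusted p under 0.05. These were Alox5ap (4.58 and 5.02 FPKM in the controls against 10.3 and 7.33 FPKM), Alox5 (0.592 and 0.805 against 1.76 and 1.63 FPKM) and Pla2g4a (0.155 and 0.408 against 1.95 and 0.906 FPKM), which release arachidonate and form leukotrienes from it. Alox5 and Pla2g4a passed the filter only through the MKO-labelled libraries. Leukotriene genes are also expressed in macrophages, whose 8 markers were all higher without overlap (21.7% of all tested genes were). The part of macrophages in these values was not tested. Lpcat3, which places polyunsaturated chains in phospholipids, differed by a log2 fold change of 0.10 (adjusted p = 0.718 by limma), and Acsl4, which activates arachidonate, by 0.20 (adjusted p = 0.569).

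**Figure D4:**
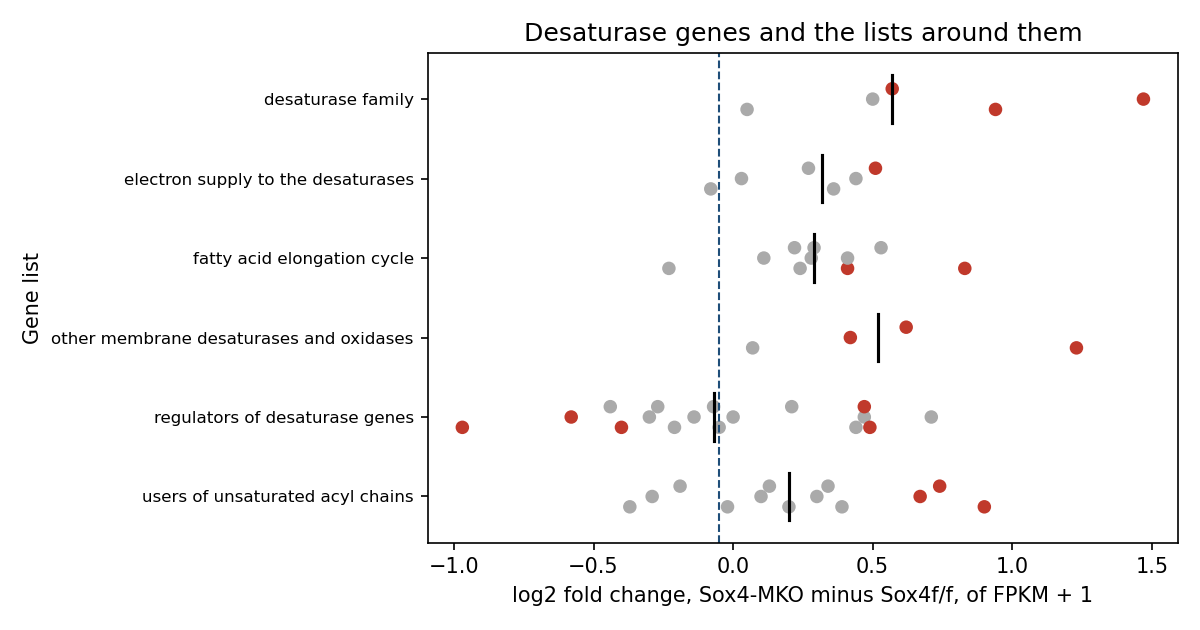
log2 fold change of FPKM + 1, Sox4-MKO minus Sox4f/f, of each tested gene of 6 lists, in red where the unadjusted p by limma was under 0.05 and grey elsewhere. Black bars are list medians, from -0.07 for the regulators to 0.57 for the desaturases themselves, and the dashed line is the median of all genes at -0.05.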

How the data were processed

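RNA sequencing libraries of BAT from 4 mice were grouped by the genotype in the sample titles. The authors deposited FPKM, 1 value per gene and library. The submitters' processing notes name Cufflinks 2.1.1, Cuffdiff and mm10 with no role, and the aligner and annotation are not given in the sources used here. The methods describe TRIzol extraction and a TruSeq library, the labels a column kit and a stranded library. Assignment of fragments shared by paralogs is the authors' and cannot be changed here.

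From these values limma 3.58.1 (R 4.3.3) modelled log2(FPKM + 1) by genotype alone, with a trended prior, over genes whose genotype mean exceeded 1 FPKM in either genotype. p-values are two-sided and adjusted by Benjamini-Hochberg over all 12877 genes, and the code was tested on simulated data. The value of 1 fragment came from genes with 1 transcript of at least 1500 nt, as the median within 25% of an iterated centre, with lengths of GENCODE M21, so fragment numbers are approximate and intervals cover counting error only. p-values rest on the spread between 2 mice per genotype, drawn by limma toward a trend fitted over all genes tested. With each gene's own spread alone, the unadjusted p of the same linear model was 0.156 for Scd2, 0.123 for Fads1 and 0.187 for Fads3.

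The members and lists were chosen with earlier results of these data known. Named are all 8 members, 10 genes of their pathways fixed by name, in each list up to 4 further genes with an unadjusted p under 0.05 by absolute log2 fold change, and the 2 genes most like each member. Nr1h3 is also named, as the other liver X receptor gene, and Elovl3, Hoxc10 and Krt5 are named as markers. The list gene Faxdc2 was not analysed here. Alternatives were 3 filters, 2 pseudocounts, 4 scalings, no moderation, a replicate block and each library left out. Figures were drawn with matplotlib 3.10.9.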

Additional observations from a re-analysis of the deposited data

How the results depend on the processing

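Across all genes, 1066 were lower and 1024 higher at an unadjusted p under 0.05. The lower count was 585 with libraries rescaled to a common sum over genes above 0 in all of them (1436 higher, median of all genes 0.05), and the higher count was 553 without moderation. With each library left out in turn, lower genes numbered 404 to 1012, higher genes 445 to 1559 and genes at an adjusted p under 0.05 between 0 and 5. Of the desaturases, 3 were called, 0 without moderation, and 1 to 2 with a library left out, the lowest count being reached without Sox4f/f mouse 1 (Scd2 alone) and without Sox4f/f mouse 2 (Scd2 alone). The 5 lists around them had 11 genes higher and 3 lower, with 18 higher after the common sum over genes above 0, 7 without moderation and 7 with the replicate block, and between 3 and 9 higher and 1 to 4 lower with a library left out.

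The log2 fold change of Fads2 turned to -0.0017 after quantile normalization, -0.16 without Sox4f/f mouse 1 and -0.09 without MKO-labelled mouse 2, that of Cyb5a to -0.14 without Sox4f/f mouse 1 and that of Elovl5 to -0.21 without MKO-labelled mouse 2. The highest values with a library left out were 0.27 for Fads2, 0.21 for Cyb5a and 0.65 for Elovl5. The unadjusted p of Fads1 was 0.0602 with a common median and 0.0523 after quantile normalization. Scd2, Fads1, Fads3 and Fads6 stayed higher under every alternative in which they were tested. The adjusted p ranged from 0.212 to 0.692 for Scd2, 0.229 to 0.714 for Fads1 and 0.0858 to 0.701 for Fads3.

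For same-numbered mice, the correlation of their deviations from the genotype means was -0.01 over 12877 genes. It rests on the difference between the mice of each genotype alone, so it cannot decide whether same-numbered mice share more than their number. With that number as a replicate block, 938 genes were lower and 970 higher, and Scd2 (unadjusted p = 0.00491), Fads1 (0.0215) and Fads3 (0.0314) were called by limma as without it. The cause of the changes under other settings was not tested. Leaving a library out changes both the number of libraries and the mice that remain, and these cannot be told apart.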
